A study of Caenorhabditis elegans with 8 samples.

Results

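Lipase genes are described here, 10 in number, that were taken by name, lipl-1 to lipl-8, fil-1 and atgl-1, from a table of 47087 loci, and each name matched 1 locus. They were measured by RNA sequencing of whole wild-type (N2) Caenorhabditis elegans in 8 libraries. Synchronized L1 larvae had been grown on NGM plates with OP50 bacteria for 40 h at 20 °C, to what the labels call young adulthood. From then on the animals of 4 libraries stayed in constant darkness (NL), and those of the other 4 lived in cycles of 12 h under LED light of 8000 lux and 12 h of darkness (DL), in incubators at 20 °C. The labels give each replicate number a batch, so that each of 4 batches holds an NL and a DL library. They give neither the number of light cycles nor whether replicates were grown as separate cultures, so p-values here measure the spread between libraries, which may be technical.

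Lipases free fatty acids from stored fat, and the worm keeps separate routes for this. Members of the lipl family are homologs of lysosomal acid lipase and act, as far as they have been studied, inside the lysosome, mostly of the intestine, which is the main fat depot of the animal. The adipose triglyceride lipase homolog atgl-1 works at the surface of lipid droplets, and fil-1 is named as a fasting-induced lipase. In fed worms the Max-like repressor MXL-3 holds lipl-1 and lipl-3 down, and in fasted worms HLH-30, the homolog of TFEB, turns them on.

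Between 18628030 and 20394371 reads per library were recovered from the deposited values. Levels are in FPKM (fragments per kilobase of transcript, scaled to library size), which can be compared between genes, and a single read over 1 kb amounted to 0.0463 to 0.0546 FPKM. The limma test on log2(FPKM + 1), adjusted over 14358 genes whose mean reached 1 FPKM and called at an adjusted p under 0.05, called 101 genes, 0.703% of those tested, 42 higher and 59 lower in DL. That split depended on scaling, with 41 higher and 32 lower at equal FPKM sums, 67 against 149 after quantile normalization, and 44 against 106 when centred by the median gene. Libraries of a group differed in developmental stage markers. The summed level of 2 adult transcripts, vit-2 and col-19, was 93.1 FPKM in NL 3 and 223 in DL 2, against 0.0561 to 6.04 in the other 6 libraries, although the labels call all animals young adults. Markers of intestine, epidermis, muscle and neurons were detected in every library. Log2 changes were below 0 for 6 of 6 muscle markers (2 at an unadjusted limma p under 0.05) and 5 of 6 neuron markers (1), and above 0 for 5 of 6 epidermis markers (1), with 0 of these called by limma. Of all tested genes 46.5% were below 0, and 8.24% had such a p in the lower direction and 12.4% in the higher. The muscle marker tni-1 did not overlap between groups, as for 4.8% of all tested genes in this direction (log2 change -0.67, limma adjusted p = 0.07). The summed level of 11 sperm markers, none of them at 0 throughout, was 2.01 to 18.1 FPKM in NL 1, NL 2 and NL 4. It was 174 FPKM in NL 3 and 184 to 623 in DL, so that it did not overlap between the groups. Taken singly, 6 of the 11 did not overlap, higher in DL (4.44% of all tested genes in this direction). All 11 had an unadjusted limma p under 0.05 and were higher in DL (12.4% of all tested genes), and 1, ssp-32, was called. Log2 changes of 7 oocyte markers were all above 0, with 5 at an unadjusted limma p under 0.05 (12.4% of all tested genes) and 0 called. Their sums were 23.3 to 68.8 FPKM in NL and 44 to 214 in DL. NL 1 and NL 2 were the most alike libraries, with a chi-square of 8.57 per gene against 25.2 to 125 for the other pairs within a group.

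Of the 10 genes, 9 passed the filter on the mean over all libraries, and lipl-1 alone of them was called, lower in DL (1 of 9 tested, beside 0.703% of all tested genes in either direction and 0.411% in this one). It was also the 1 gene of the 9 called by limma-voom on the recovered reads (0.512% of all genes tested), and with the batch as a block none was (0.174%). The other 8 were not called, although lipl-2 and lipl-3 had an unadjusted limma p under 0.05 in the same direction, as did 8.24% of all tested genes. Log2 changes were below 0 for 8 of the 9, with a median of -0.28, and 46.5% of all tested genes were below 0, with a median of 0.03 over all. In bulk RNA a lower level through fewer expressing cells cannot be told apart from less RNA per cell.

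**Figure D1:**
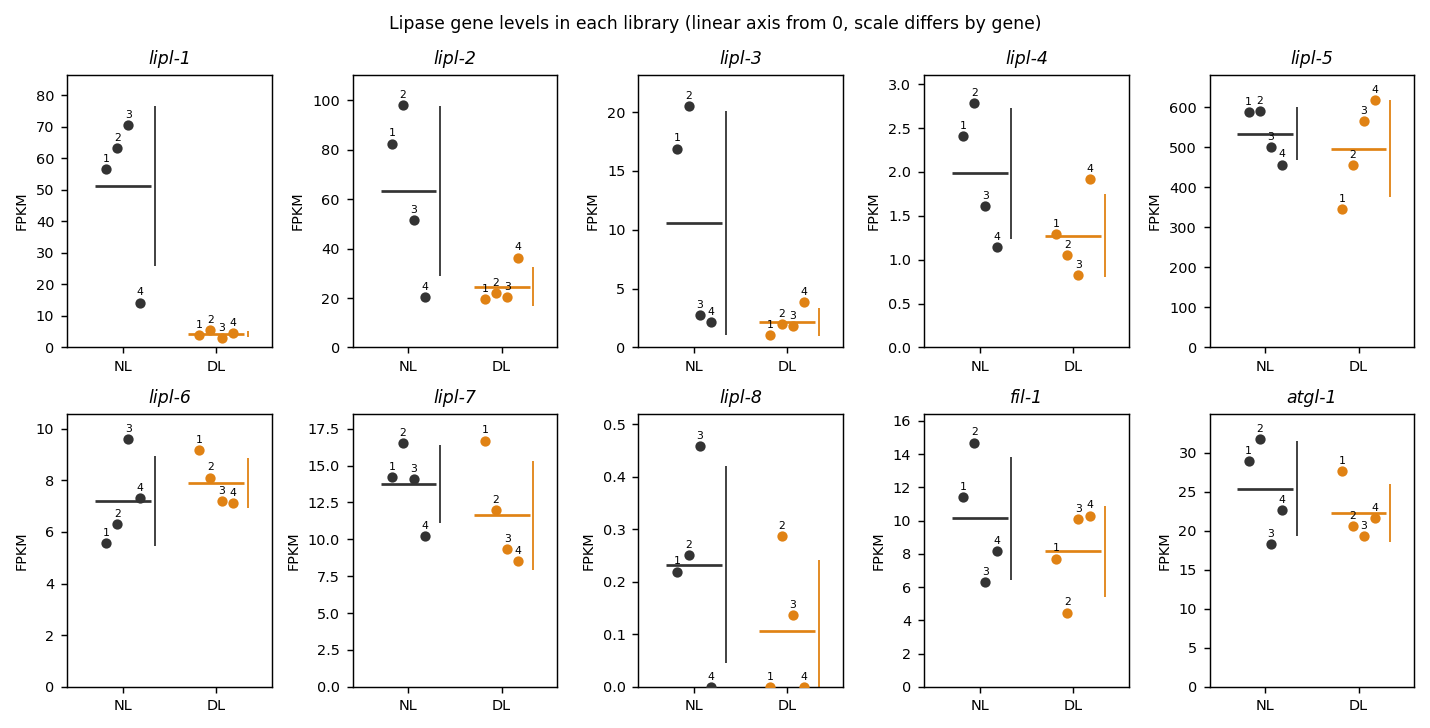
FPKM of each of the 10 genes in every library, on linear axes from 0 whose scale differs by gene. Numbers beside the points are replicate numbers, horizontal lines are group means and vertical lines span 1 SD either way (n = 4, drawn from 0 where the lower end would be negative). For lipl-1 the DL libraries sit between 2.94 and 5.43 FPKM, all below the lowest NL library at 14.2.

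The lipl genes other than lipl-7 lie on chromosome V, as does fil-1, in the annotation of WBcel235, the build that the submitters name. Chromosome V thus holds 7 of the 9 tested genes, against 19.5% of all tested genes. The span of lipl-1 (WBGene00010062) is 12919986 to 12921692 on the plus strand, with 5 exons, and that of lipl-2 (WBGene00009773) is 9791567 to 9793241 on the plus strand, also with 5. The gene lipl-3 (WBGene00020016) runs from 521595 to 524218 on the minus strand in 7 exons, and lipl-5 (WBGene00022642) from 385746 to 387740 on the plus strand. Further along V lie lipl-4 (WBGene00019376, 6550171 to 6552186), lipl-6 (WBGene00021963, 6931475 to 6934312), lipl-8 (WBGene00013050, 14745684 to 14748708) and fil-1 (WBGene00011321, 14993838 to 14995207). The gene lipl-7 (WBGene00008510) is on chromosome IV at 10239278 to 10241823, and atgl-1 (WBGene00015484) is on III at 6415772 to 6419459. The values are per whole gene, over all exons. In lipl-4, 120 exon bases are shared with K04A8.15, a non-coding RNA of the other strand that is listed at 1 FPKM or less, and, as the library kit does not mark strand, reads of the pair cannot be told apart. Also shared are 82 exon bases of lipl-4 with a tRNA gene of the other strand (WBGene00023095) and 23 of lipl-3 with srw-107. Both of these neighbours are listed at 0 in all libraries.

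The most abundant of the 10 was lipl-5 and the least abundant lipl-8 in both groups. In NL the order by mean was lipl-5 (533 FPKM), lipl-2 (63.2), lipl-1 (51.1), atgl-1 (25.4), lipl-7 (13.8), lipl-3 (10.6), fil-1 (10.1), lipl-6 (7.2), lipl-4 (1.98) and lipl-8 (0.232). Ranges over the 4 NL libraries did not overlap between lipl-5 and lipl-2, between atgl-1 and lipl-7, between lipl-6 and lipl-4, or between lipl-4 and lipl-8. The other neighbours overlapped, among them lipl-2 and lipl-1. In DL the order was lipl-5 (496 FPKM), lipl-2 (24.6), atgl-1 (22.3), lipl-7 (11.6), fil-1 (8.13), lipl-6 (7.9), lipl-1 (4.22), lipl-3 (2.18), lipl-4 (1.27) and lipl-8 (0.105), so that lipl-1 stood at rank 3 in NL and at rank 7 in DL. The lowest lipl-6 value in DL, 7.12 FPKM, lay above the highest of lipl-1.

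The gene lipl-1, whose product acts in lysosomal breakdown of fat in fasted worms, fell in DL. Its FPKM, in the order of the replicate numbers as for all genes that follow, was 56.6, 63.3, 70.5 and 14.2 under NL and 4.02, 5.43, 2.94 and 4.49 under DL. The groups did not overlap, as for 4.8% of all tested genes in this direction, and NL 4 was far below the other NL libraries while still 2.61 times the highest DL library. In reads, these values were 363 to 1873 in NL and 72 to 147 in DL. The ratio of the group means was 12.1 (51.1 ± 25.3 against 4.22 ± 1.03 FPKM, SD, n = 4 each). The log2 change of (FPKM + 1) was -3.12 ± 0.45 (SE; 95% interval -4.15 to -2.10; limma adjusted p = 0.0277), at rank 6 from the lowest of 14358. Within the batches the difference was -3.52, -3.32, -4.18 and -1.47 on the log2 scale, smallest in batch 4. With the batch as a block, limma gave an adjusted p of 0.0821, so that the call ended. It also ended without NL 1 (limma adjusted p = 0.114), NL 2 (0.121), DL 1 (0.0715), DL 3 (0.0886) or DL 4 (0.0996), with log2 changes of -3.15 to -2.95. Without NL 4 the log2 change was -3.64 (limma adjusted p = 0.000525). Without the 2 libraries with adult transcripts, NL 3 and DL 2, the adjusted p from limma was 0.013, in a fit that called 10.4% of all genes.

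The sperm and oocyte markers ran higher in DL and the muscle markers lower, where lipl-1 was lower, and their part in the lipl-1 result was not tested. Sperm marker sums did not overlap, at 2.01 to 174 FPKM in NL and 184 to 623 in DL, although only 6 of the 11 markers were without overlap singly (4.44% of all tested genes in this direction). Within NL, NL 3 had the highest sum and the highest lipl-1 level. NL 4 had the lowest sum and the lowest lipl-1 level in NL, each being a single library. The sums of 9 intestine markers overlapped, at 2991 to 3442 FPKM in NL, highest in NL 4, and 2584 to 3962 in DL, with 0 of the 9 called by limma. At an unadjusted p under 0.05 limma had 2 of the 9, ges-1 (log2 change -0.67) and ifb-2 (-0.55), both lower in DL like lipl-1 (8.24% of all tested genes), and act-5 and asp-5 made up most of the sum. The part of these markers in the lipl-1 result was not tested.

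**Figure D2:**
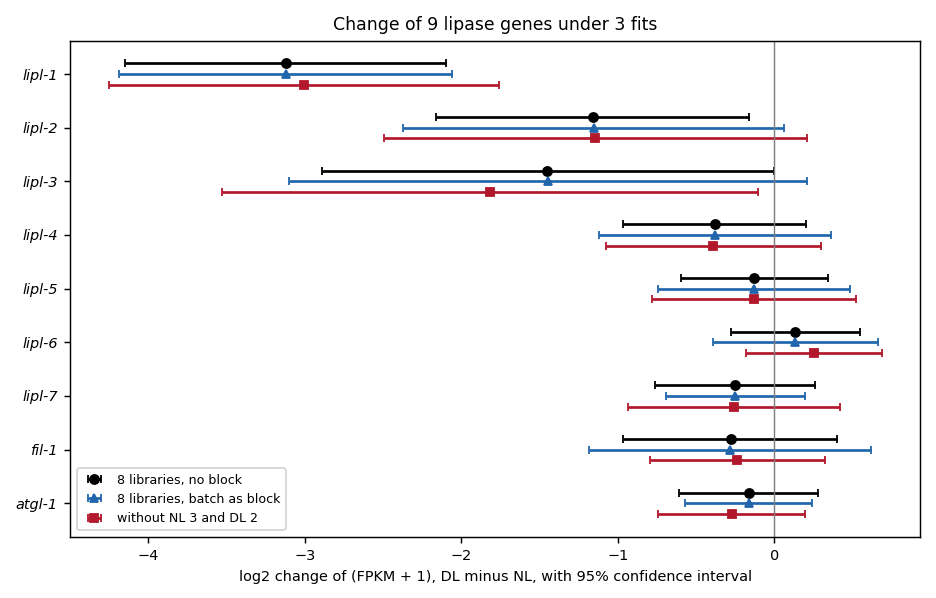
Log2 change of (FPKM + 1), DL minus NL, with its 95% confidence interval for the 9 tested genes, in limma fits over 8 libraries without a block (circles), with the batch as a block (triangles) and without NL 3 and DL 2 (squares). The interval of lipl-1 excludes 0 in all 3 fits, and those of lipl-4 to atgl-1 include 0 in each.

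Next to lipl-1 the lowest log2 changes belonged to lipl-3 and lipl-2, and neither was called. The gene lipl-2, of the same family, stood at 82.5, 98.2, 51.5 and 20.5 FPKM under NL and at 19.7, 22, 20.3 and 36.4 under DL. NL 4 lay among the DL libraries, and the other NL libraries lay above all of DL. The means were 63.2 ± 34.4 and 24.6 ± 7.94 FPKM (SD, n = 4 each), or -1.16 ± 0.44 as a log2 change (SE; limma adjusted p = 0.179). The difference within batches was -2.01, -2.11, -1.30 and 0.8, so batch 4 ran the other way. Without NL 4 limma called the gene, at a log2 change of -1.61 (adjusted p = 0.0381), in a fit that called 1.54% of all genes.

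For lipl-3, a fasting-induced lipase gene regulated with lipl-1 by MXL-3 and HLH-30, the NL libraries split into pairs. Values were 16.9 and 20.5 FPKM in NL 1 and NL 2, 2.76 and 2.18 FPKM in NL 3 and NL 4, and 1.03, 1.99, 1.82 and 3.86 FPKM under DL. The values of NL 3 and NL 4 were inside the range of DL, and the mean of NL 1 and NL 2 was 7.56 times that of NL 3 and NL 4. The group means of 10.6 ± 9.49 and 2.18 ± 1.2 FPKM (SD, n = 4 each) amounted to -1.45 ± 0.64 as a log2 change (SE; limma adjusted p = 0.242). Only NL 1 and NL 2, the most alike libraries, lay above the DL range. Its batch differences were -3.14, -2.85, -0.41 and 0.61 on the log2 scale.

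The gene lipl-4, which lengthens life when overexpressed in the intestine and signals from the lysosome to the nucleus, was low throughout. Its level was 2.41, 2.78, 1.61 and 1.14 FPKM under NL and 1.29, 1.05, 0.827 and 1.92 under DL, from 25 to 91 reads. The groups overlapped, and the log2 change was -0.38 ± 0.26 (SE; 95% interval -0.97 to 0.20; limma adjusted p = 0.456). At this level the pseudocount of 1 FPKM shrinks a change, and limma-voom on the recovered reads gave -0.62 (limma adjusted p = 0.446).

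The most abundant of the 10, lipl-5, another gene of the family, did not pass the test. Its level was 588, 589.8, 499.5 and 456 FPKM under NL and 345, 455, 565 and 617 under DL, and the DL values spanned the whole NL range. The log2 change was -0.13 ± 0.21 (SE; limma adjusted p = 0.767). Its 95% interval, -0.60 to 0.34, allows a level up to 1.52-fold lower or 1.27-fold higher in DL. The sum over the 10 genes overlapped between groups, at 542 to 844 FPKM in NL and 433 to 711 in DL, and so did the sum without lipl-5, at 86.3 to 254 and 71.9 to 94.3. The share of lipl-5 in the sum of all 10 was 72.9%, 69.9%, 74% and 84.1% under NL and 79.8%, 85.7%, 88.7% and 86.7% under DL. Within a library, the level of lipl-1 was 0.0963, 0.107, 0.141 and 0.0311 times that of lipl-5 in NL and 0.0116, 0.0119, 0.00521 and 0.00728 times in DL. These ratios did not overlap either, and they do not depend on how a library was scaled.

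The remaining lipl genes, whose functions are less studied, overlapped between the groups. Among the tested genes lipl-6 had the only positive log2 change. It stood at 5.58, 6.32, 9.59 and 7.31 FPKM under NL and at 9.17, 8.11, 7.19 and 7.12 under DL (0.13 ± 0.18, SE; limma adjusted p = 0.726). The values of lipl-7 were 14.2, 16.5, 14.1 and 10.2 FPKM under NL and 16.7, 12, 9.32 and 8.53 under DL (-0.25 ± 0.23, SE; limma adjusted p = 0.586). Both extremes of lipl-7 lay in DL, the highest in DL 1 and the lowest in DL 4. The gene lipl-8 lay below the filter and was not tested, with 5, 6, 11 and 0 reads in NL and 0, 7, 3 and 0 in DL. A count of 0 allows up to 3 reads, counting error only, and a difference was not detectable at this depth.

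Outside the lysosomal family, fil-1 and atgl-1 did not pass the test. The fasting-induced lipase gene fil-1 stood at 11.4, 14.7, 6.3 and 8.15 FPKM under NL and at 7.71, 4.47, 10.1 and 10.3 under DL, with its extremes in NL 2 and DL 2 of the same batch. The log2 change was -0.28 ± 0.30 (SE; 95% interval -0.97 to 0.40; limma adjusted p = 0.65). The lipid droplet lipase gene atgl-1 stood at 28.9, 31.7, 18.3 and 22.6 FPKM under NL and at 27.6, 20.6, 19.3 and 21.6 under DL. The log2 change was -0.16 ± 0.20 (SE; limma adjusted p = 0.687). Its 95% interval, -0.61 to 0.28, allows up to 1.52-fold lower or 1.21-fold higher.

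**Figure D3:**
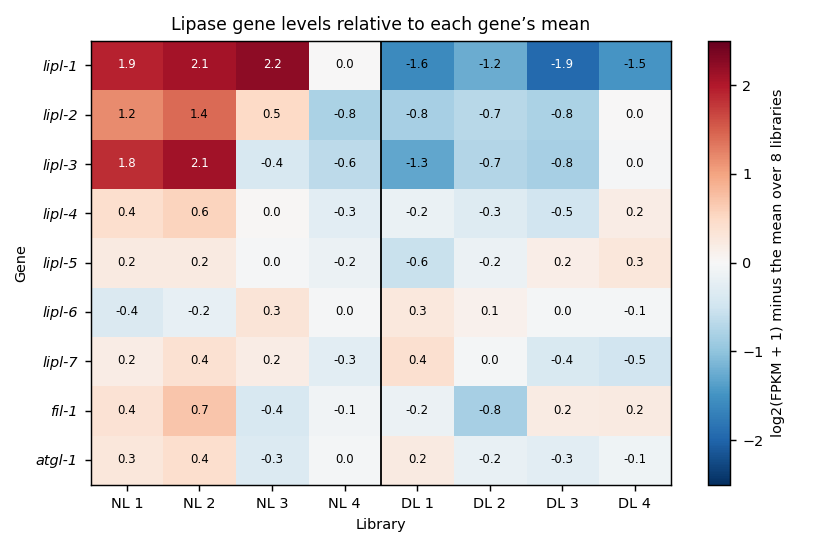
Level of the 9 tested genes in each library as log2(FPKM + 1) minus the mean of the gene over the 8 libraries, in red where above and blue where below. NL 1 and NL 2 stand highest for lipl-2 and lipl-3, while for lipl-1 NL 3 stands with them and NL 4 lies between them and DL.

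Across the 8 libraries lipl-2, lipl-3 and lipl-4 went together most closely. Pearson's r of log2(FPKM + 1) was 0.93 for lipl-2 with lipl-3, 0.93 for lipl-2 with lipl-4 and 0.89 for lipl-3 with lipl-4. After taking out the group means these were 0.89, 0.91 and 0.84. For lipl-1 the r was 0.85 with lipl-2 and 0.72 with lipl-3 (0.82 and 0.52 without the group means). The gene lipl-6 ran opposite to lipl-3, at -0.79. These values describe 8 libraries that share group, batch and scaling, and NL 1 and NL 2 weigh on them as a pair.

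Most like lipl-1 among 6179 named genes averaging 5 FPKM or more were clec-82, ftn-1, cpr-9, cpr-1 and asm-2, by Pearson's r over the 8 libraries (0.991, 0.988, 0.985, 0.983 and 0.979). After taking out the group means the same pairs had an r of 0.89 to 0.94. The choice over the same 8 libraries favours a high r here too, and NL 4, the lowest NL library of each gene, weighs on it. The gene clec-82, for a C-type lectin domain protein, stood at 12.9, 11.2, 11.6 and 5.13 FPKM under NL and at 2.15, 1.89, 1.42 and 2.06 under DL (log2 change -1.90 ± 0.27, SE; limma adjusted p = 0.0233, and 0.0861 with the batch as a block). In ftn-1 (ferritin), NL 4 was likewise the lowest of its group, at 26.7 FPKM against 72.5 to 87.6, with 4.6 to 11.7 in DL (log2 change -2.97 ± 0.39, SE; limma adjusted p = 0.0165, and 0.0484 with the block). The cathepsin B-like protease gene cpr-1 stood at 1878, 1871, 1435 and 763 FPKM in NL and at 422 to 524 in DL, and cpr-9, of the same family, at 926 to 1149.7 and 642 to 728. Neither was called (limma adjusted p = 0.0541 and 0.1), nor was asm-2, which encodes an acid sphingomyelinase, at 10.6 to 19.7 and 7.04 to 9.08 FPKM (limma adjusted p = 0.0645). All 5 had NL 4 as the lowest NL library and no overlap between groups, as the choice by likeness to lipl-1 favours.

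**Figure D4:**
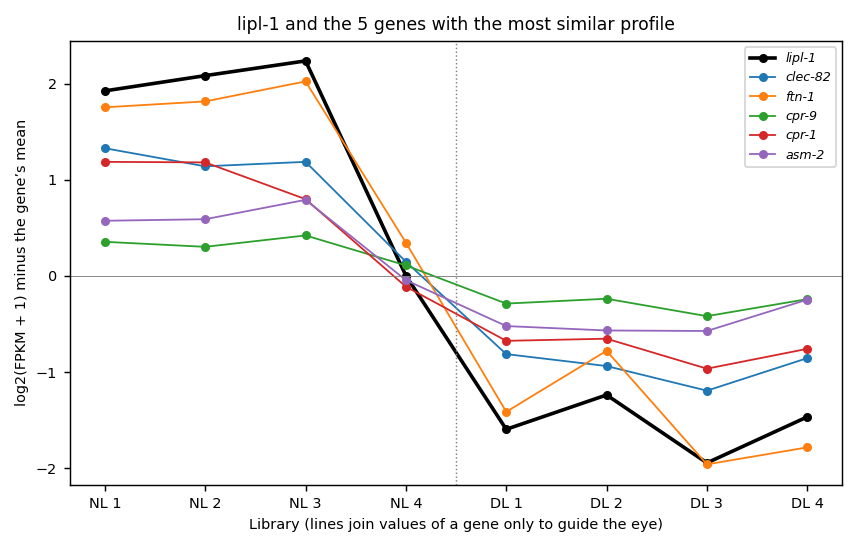
Log2(FPKM + 1) minus the mean over 8 libraries, by library, for lipl-1 (black) and the 5 genes with the highest Pearson correlation with it. All 6 are highest in NL 1 to NL 3, lower in NL 4 and lowest in DL, and lipl-1 and ftn-1 span the widest range.

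Regulators of these lipase genes did not pass the test. Of 16 listed, all were tested, and limma called 0, as did limma-voom on the recovered reads, with 3 at an unadjusted p under 0.05, all lower in DL (8.24% of all tested genes). The log2 changes had a median of -0.17, and 14 were below 0, beside 46.5% of all tested genes. The repressor gene mxl-3 stood at 107, 103, 26.1 and 80.1 FPKM under NL and 61.2, 49.1, 60.8 and 81.7 under DL, with NL 3 the lowest of all (log2 change -0.16 ± 0.41, SE; limma adjusted p = 0.866). Levels of hlh-11, a repressor of atgl-1, were 69.1 ± 12.6 and 57.7 ± 15.7 FPKM (SD, n = 4 each; limma adjusted p = 0.546). The Mediator subunit gene mdt-15, which serves fat metabolism, stood at 56.2 ± 7.64 and 44 ± 2.4 FPKM (limma adjusted p = 0.194), and raga-1, a RagA GTPase homolog that relays nutrient state, at 56.9 ± 5.35 and 59.1 ± 3.14 (limma adjusted p = 0.828). Outside the naming rule and picked after their values were seen are hlh-30, aak-2, an AMP-activated kinase subunit, and daf-16, a FOXO transcription factor. Levels of hlh-30 were 51.6, 48.7, 37.2 and 42.3 FPKM under NL and 29.3, 27.9, 40.6 and 40.4 under DL (-0.38 ± 0.18, SE; limma adjusted p = 0.265). Those of aak-2 and of daf-16 did not overlap between groups and were lower in DL, as for 4.8% of all tested genes. Without NL 3, in a fit that called 10.9% of all genes, limma called aak-2 (adjusted p = 0.0308) and daf-16 (adjusted p = 0.0456), both lower. Each was called in 1 of 18 alternatives, with a limma adjusted p of up to 0.29 for aak-2 and 0.273 for daf-16.

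The fasting response list held 11 genes, 10 of them tested, and limma called 1, fmo-2, which was lower in DL (0.411% of all tested genes in this direction). At an unadjusted limma p under 0.05 stood 1 gene lower, fmo-2, and 2 higher, fat-5 and lbp-8 (8.24% and 12.4% of all tested genes). Of the 10 log2 changes 4 were above 0, with a median of -0.67, while 46.5% of all tested genes were below 0, with a median of 0.03. The list does not mark which way fasting moves each gene, so these signs and this median carry no expected direction. The flavin monooxygenase gene fmo-2, an HLH-30 target, stood at 132, 126, 59 and 41.7 FPKM under NL and at 23.7, 8.92, 7.28 and 13.4 under DL, with NL 1 and NL 2 above the other NL libraries. The log2 change was -2.63 ± 0.45 (SE; limma adjusted p = 0.0395, and 0.0709 with the batch as a block). The call ended without NL 1, NL 2, DL 2, DL 3 or DL 4, up to a limma adjusted p of 0.146, at equal FPKM sums (0.056) and without the filter on low values (0.0833). In the 4 most abundant others NL 1 and NL 2 were the highest libraries, as in lipl-3. The glyoxylate cycle gene icl-1 stood at 1735, 2138, 583 and 618 FPKM under NL and at 579, 619.8, 479 and 619 under DL. For acs-2, an acyl-CoA synthetase gene of fatty acid oxidation, the values were 809, 861, 151 and 97 in NL and 184, 80.7, 129 and 158 in DL. Likewise acs-11 stood at 181 and 219 FPKM in NL 1 and NL 2 and at 73.8 and 61.2 in NL 3 and NL 4, and hacd-1, a hydroxyacyl-CoA dehydrogenase gene, at 349 and 351 against 240.1 and 131. None of these 4 was called (limma adjusted p = 0.267 for icl-1, 0.353 for acs-2, 0.332 for acs-11 and 0.368 for hacd-1). Other genes of the list, named after their values were seen, had log2 changes above 0. The fatty acid desaturase gene fat-5 stood at 44.6, 37.8, 48.6 and 36.4 FPKM under NL and at 59.1, 47.6, 58.4 and 50.1 under DL (0.36 ± 0.14, SE; limma adjusted p = 0.196). For fat-7, another desaturase gene, NL 1 and NL 2 were the lowest libraries, at 5.41 and 4.47 FPKM against 25.2 and 14.8 in NL 3 and NL 4 and 12.1 to 41.2 under DL (0.86 ± 0.54, SE; limma adjusted p = 0.418). The log2 change of ech-9 was 0.11 ± 0.40 (SE; limma adjusted p = 0.906).

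**Figure D5:**
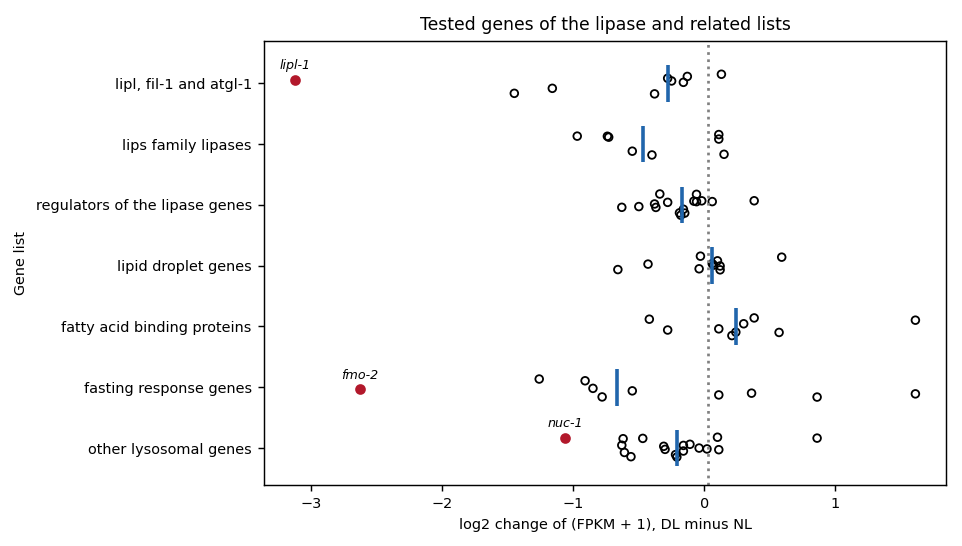
Log2 change of (FPKM + 1), DL minus NL, for each tested gene of the 10 lipase genes and of 6 related lists. Filled red points passed the limma test over all genes, open points did not, blue bars are list medians, the dotted line is the median of all tested genes (0.03), and vertical scatter within a list has no meaning. Past the test are lipl-1, fmo-2 and nuc-1, all lower in DL.

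Of 18 other lysosomal genes, all tested, limma called 1, nuc-1, lower in DL (0.411% of all tested genes in this direction). At an unadjusted limma p under 0.05 were 5 genes lower and 1 higher (8.24% and 12.4% of all tested genes). The median log2 change was -0.21, with 14 of the 18 below 0 (46.5% of all tested genes). The gene nuc-1 encodes a lysosomal DNase II. It stood at 119, 115, 134 and 94.1 FPKM under NL and at 47.8, 65.8, 48.3 and 57.6 under DL, or -1.06 ± 0.16 as a log2 change (SE; limma adjusted p = 0.0322, and 0.12 with the batch as a block). The call ended without NL 1, NL 2, DL 1, DL 3 or DL 4, up to an adjusted p of 0.127 from limma, at equal FPKM sums (0.056) and without the filter on low values (0.0556). Without NL 3, in the fit that called 10.9% of all genes, limma also called gba-3, a glucosylceramidase gene (lower, adjusted p = 0.0305), and ncr-2, a Niemann-Pick C1 homolog (higher, adjusted p = 0.0346), each in 2 of its alternatives and both named after their values were seen, as were lips-5, mboa-2 and lbp-8. The lysosomal proteases asp-1, asp-3, cpl-1 and asp-4 were the most abundant, and their log2 changes were -0.22, -0.47, -0.11 and -0.16 (limma adjusted p = 0.702, 0.237, 0.841 and 0.624).

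Of 17 lips genes, a second lipase family, 14 matched a locus and 8 were tested. Limma and limma-voom called 0 of them, with 3 at an unadjusted limma p under 0.05, all lower in DL (8.24% of all tested genes). The median log2 change was -0.47, beside 0.03 over all tested genes. The most abundant were lips-10 (41.1 ± 11.5 FPKM in NL and 43.7 ± 6.13 in DL), lips-3 (28.5 ± 10.8 and 30.5 ± 9.81), lips-9 (22.4 ± 9.23 and 24.9 ± 10.4) and lips-17 (23.8 ± 10.4 and 11.2 ± 3.75; SD, n = 4 each). In lips-17 the NL values of 27.6, 36.8, 14 and 17 FPKM again had NL 1 and NL 2 highest (log2 change -0.97 ± 0.32, SE; limma adjusted p = 0.127). Without NL 3 limma called lips-17 (adjusted p = 0.0419) and lips-5 (adjusted p = 0.0457), both lower, where 10.9% of all genes were called. Each of the pair was called in 1 of 18 alternatives, with a limma adjusted p of up to 0.311 for lips-17 and 0.276 for lips-5.

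Genes of the lipid droplet and of fatty acid carriage held no called gene. All 10 lipid droplet genes were tested, and limma and limma-voom called 0. At an unadjusted limma p under 0.05 were 2, both lower (8.24% of all tested genes). The median log2 change was 0.06, beside 0.03 over all tested genes. The perilipin gene plin-1 had a level of 109 ± 9.52 FPKM under NL and 118 ± 7.78 under DL, and that of dhs-3, a short-chain dehydrogenase of the droplet surface, was 136 ± 19.6 and 142 ± 16.8 FPKM. Levels of acs-22, a fatty acid transport protein homolog, were 59.3 ± 12.4 and 57.8 ± 11.3 FPKM, and those of lpin-1, a lipin, 56.6 ± 6.45 and 55.9 ± 12.5 (SD, n = 4 each). Without NL 3 limma called mboa-2 (adjusted p = 0.0466), lower in DL, where 10.9% of all genes were called. This was 1 of 18 alternatives, with a limma adjusted p of up to 0.276.

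Among 9 fatty acid binding protein genes, all tested, limma and limma-voom called 0, with a median log2 change of 0.24 and 7 above 0. Over all tested genes the median was 0.03, and 46.5% were below 0. The most abundant were lbp-6 (656 ± 55.8 FPKM in NL and 789 ± 233 in DL), lbp-2 (354 ± 110.3 and 374 ± 45.7), lbp-9 (300.4 ± 45.6 and 359 ± 89.1) and lbp-3 (94.3 ± 20.8 and 122 ± 15.4; SD, n = 4 each). The gene with an unadjusted p under 0.05 (12.4% of all tested genes in the higher direction) was lbp-8, the lipid chaperone that carries the LIPL-4 signal from the lysosome to the nucleus. It is also 1 of the fasting response genes above. It stood at 0.401, 0.477, 1.81 and 3.96 FPKM under NL and at 7.98, 5.7, 4.65 and 6.31 under DL. The groups did not overlap, as for 4.44% of tested genes in this direction, with NL 1 and NL 2 lowest, the reverse of their place in lipl-3. The log2 change was 1.61 ± 0.40 (SE; limma adjusted p = 0.0966). Of 17 alternatives 2 called it, without NL 3 (limma adjusted p = 0.0434, where 10.9% of all genes were called) and without NL 4 (0.023, where 1.54% were), and the highest limma adjusted p was 0.266. At this low level the log2 change depended on the pseudocount, with 2.33 at 0.1 FPKM and 2.41 by limma-voom.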

How the data were processed

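RNA was poly(A)-selected and sequenced from whole worms, with 1 library per sample. The authors deposited FPKM for every gene in 1 table, as its headers name them, and HISAT2, HTSeq and WBcel235 are named in the submitters' processing notes. Their versions, the annotation and the strand setting are left unstated by the labels. Symbols and exon lengths came from the WBcel235 annotation (Ensembl release 115). FPKM times exon length gave whole reads in all libraries, within 0.05 read, for 22881 of 22985 genes (99.55%). The library total behind FPKM was 0.938 to 1.159 times the recovered reads, a scaling that is not described.

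DL and NL were compared in limma 3.58.1 (R 4.3.3) on log2(FPKM + 1), with an intensity trend, two-sided, Benjamini-Hochberg adjusted over 14358 genes. This pseudocount understates changes of low genes. The steps were tested on simulated data with independent noise in each gene and library. The simulated data held no batch or stage differences, so they do not show how the calls respond to these. The labels tie each replicate number to a batch, which pairs the libraries. Their deviations from group means correlated at -0.0072, -0.19, -0.32 and 0.19. The fit without the batch is the main one. Named list genes were those called and the 4 of highest mean in each list. The genes and lists were chosen with earlier results of these data known. Alternatives were pseudocounts of 0.1 and 0.5, the filter, the scaling, the block, left-out libraries and limma-voom. Tables were made in pandas 2.3.3 (Python 3.11.15) and figures in matplotlib 3.10.9.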

Additional observations from a re-analysis of the deposited data

Results flagged for a closer look

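The level of lipl-2 in DL 4 stood apart from the other libraries of its group, at 36.4 FPKM against 19.7 to 22, a gap of 0.861 of the range of the group, above the critical value of Dixon's test for 4 libraries. This was 1 of 20 groups of values examined, and chance marks about 1 in 20. In the same library lipl-3 (3.86 FPKM), lipl-4 (1.92 FPKM), lipl-5 (617 FPKM) and fil-1 (10.3 FPKM) were also the highest of DL. The genes lipl-6 (7.12 FPKM) and lipl-7 (8.53 FPKM) were the lowest of DL there, and lipl-8 was at 0 as in DL 1. For lipl-1 and atgl-1 DL 4 was at neither end. The groups were examined in FPKM, not on the log2 scale of the limma test, where other values can stand apart. On that scale lipl-1 stood at 3.92 in NL 4 against 5.85 to 6.16 in the other NL libraries.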

How the results depend on the processing

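The count of called genes, 101 with the main settings, was 33 without a filter on low values, 216 with quantile normalization, 25 with the batch as a block, 1493 without both NL 3 and DL 2, and 9 to 1561 with 1 library left out. Of the 10 lipase genes 1 was called, against 0 without a filter (23134 genes tested in place of 14358), 0 with the block and 0 to 2 with 1 library left out. The log2 change of lipl-1 was -3.64 to -2.90 over 18 alternatives, and 11 of them kept the call. The log2 change of lipl-5 ran from -0.25 (without DL 4) to 0.03 (without DL 1, the 1 change of sign). No other lipase gene changed sign in the 17 or 18 alternatives run for it. The block changed the call of lipl-1 and of no other lipase gene. The cause of these shifts was not tested. Depth limits lipl-8, with 11 reads or fewer in each library. What limits the other genes was not compared.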
